A study of Mus musculus with 41 samples.

Results

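Arc, Egr1, Npas4, Fosb, Junb and Nr4a1 are 6 immediate early genes, described here from every called region within 25 kb of them in mouse cortical neurons. The members are the genes, placed by approximate positions on build mm9, and the regions were taken by distance alone. Of 488881 regions in 27 lists, 477 met this rule. Chromatin immunoprecipitation with sequencing gave 15 lists of histone marks and 12 lists of RNA polymerase II (Pol II), LSD1 or Flag-tagged LSD1. The cells were mouse primary cortical neurons at day 10 in vitro, bathed in 55 mM KCl, which depolarizes them, for 0 h or 1 h. LSD1 (Kdm1a) is a histone demethylase and LSD1n is its neuronal splice isoform. The LSD1n WT and LSD1n KO neurons gave H3K36me3, H3K4me1, H4K20me1 and Pol II at both times. H3K4me2 was measured in LSD1n WT neurons at both times. The antibody against LSD1 was used in wild type neurons at both times, in LSD1n WT neurons at 0 h, and in LSD1n KO neurons for which the labels give no KCl time. Flag lists came from R26/LSD1n and R26/LSD1c neurons at both times. The 10 GRO-seq and 4 RNA-seq samples of the series are not analysed here. Each group held 1 library, except H4K20me1 in LSD1n WT neurons at 1 h, with 2. Differences between groups therefore had no test, and nothing in the labels says from how many animals or cultures a library came.

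Immediate early genes are transcribed within minutes of a stimulus from factors that the resting cell already holds, such as CREB and the serum response factor. In cortical neurons, membrane depolarization and calcium entry drive them. Egr1 encodes a zinc finger transcription factor, Npas4 a neuronal bHLH-PAS factor that answers calcium entry, Fosb and Junb are partners in the AP-1 dimer, and Nr4a1 encodes an orphan nuclear receptor. Arc differs from them in encoding a synaptic protein that takes part in AMPA receptor endocytosis.

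Promoter sequences are shown so that the core of the site that CREB recognises can be looked for in them, beside Pol II sites that lay at the starts of these genes in the lists. Binding of CREB was not measured. RefSeq's table for GRCm38.p6 held 4 of the 6 genes, and Arc and Egr1 had no entry. Each entry is printed 5′ to 3′ from 250 bases before the annotated start to 50 bases after it, with the core of the cAMP response element (TGACG on either strand) in capitals.
Npas4: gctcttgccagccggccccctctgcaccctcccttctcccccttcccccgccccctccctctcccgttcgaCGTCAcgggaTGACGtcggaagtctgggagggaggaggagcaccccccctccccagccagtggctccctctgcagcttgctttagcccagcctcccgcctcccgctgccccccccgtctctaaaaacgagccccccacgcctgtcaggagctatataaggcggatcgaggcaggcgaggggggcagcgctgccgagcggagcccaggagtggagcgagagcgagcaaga
Fosb: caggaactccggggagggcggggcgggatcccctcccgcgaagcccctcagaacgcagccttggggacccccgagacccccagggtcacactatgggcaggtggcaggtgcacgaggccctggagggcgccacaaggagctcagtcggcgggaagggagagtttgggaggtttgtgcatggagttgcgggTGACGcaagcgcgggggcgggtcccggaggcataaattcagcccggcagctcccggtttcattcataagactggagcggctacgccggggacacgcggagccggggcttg
Junb: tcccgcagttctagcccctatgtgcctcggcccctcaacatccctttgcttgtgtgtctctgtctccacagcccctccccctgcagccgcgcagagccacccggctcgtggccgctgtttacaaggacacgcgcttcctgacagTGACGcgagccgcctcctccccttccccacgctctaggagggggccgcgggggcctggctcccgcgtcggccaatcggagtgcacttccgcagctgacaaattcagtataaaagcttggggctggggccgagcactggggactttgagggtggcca
Nr4a1: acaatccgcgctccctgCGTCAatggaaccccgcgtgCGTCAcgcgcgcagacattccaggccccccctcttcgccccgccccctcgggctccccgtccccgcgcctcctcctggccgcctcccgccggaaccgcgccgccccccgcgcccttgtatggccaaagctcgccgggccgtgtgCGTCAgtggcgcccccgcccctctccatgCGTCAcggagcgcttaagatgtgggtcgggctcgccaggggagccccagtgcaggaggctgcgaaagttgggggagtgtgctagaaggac

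All 4 promoters held this core, which 20.8% of the 32851 RefSeq promoters of that length held. Fosb had 1, starting 60 bases before the annotated start, and Junb had 1, starting 106 bases before it. Npas4 had 2, starting 179 and 169 bases before the start on opposite strands. Nr4a1 had 4, starting 233, 213, 69 and 40 bases before the start; 0.231% of all promoters held at least 4 and 5.01% at least 2. The whole element TGACGTCA, which contains the core, was in none of the 4 and in 1.79% of all promoters. Also in none of the 4 were the CArG box of the serum response factor (1.63% of all promoters), the AP-1 site TGANTCA (7.81%) and the EGR site GCGTGGGCG (0.612%). A TATAAA was in the Junb entry alone, at base 1 of the annotated transcript (13.6% of all promoters). Each motif was searched on both strands, and a match describes letters only. In RefSeq's own coordinates the printed Nr4a1 start lay 12.9 kb inside the gene's span, and the printed Npas4 start 13.5 kb inside its span. For Fosb and Junb these distances were 0.073 kb and 0 kb. RefSeq's Npas4 span is 19087 bases long and the mm9 span used below 5601, so the 13.5 kb is not a distance on the latter. RefSeq's span reaches 13.5 kb further upstream than the printed start. Regions described below as upstream of Npas4 are upstream of the shorter mm9 span and may lie inside RefSeq's span, which was not checked on mm9.

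On mm9 the positions used were chromosome 18, 35020900 to 35024600, for Egr1, chromosome 19, 4984400 to 4990000, for Npas4, and chromosome 7, 19888000 to 19895400, for Fosb. Junb was placed on chromosome 8, 87500800 to 87502600, Nr4a1 on chromosome 15, 101084700 to 101105200, and Arc on chromosome 15, 74499500 to 74503000. Distances below are counted from the 5′ end of these spans in the direction of transcription. The nearest protein-coding neighbours in RefSeq, upstream and downstream, were Reep2 and Etf1 for Egr1, Slc29a2 and Mrpl11 for Npas4, and Ercc1 and Rtn2 for Fosb. They were Hook2 and Prdx2 for Junb, Grasp and Atg101 for Nr4a1, and Jrk and Mroh4 for Arc.

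The lists were called from 6990017 to 34859557 sequenced tags a library and held 940 to 62945 regions each. Between 0.0806% and 19.6% of the tags of a library fell in its regions. The deposited score is 1 for every region, so no height was given, and a region is described by its position, its width and, for sites of the fixed size of 200 bp, its place in the list. What the lists were ordered by is not given in the sources used here. Of the first of 10 equal parts of each Pol II list, 99.2% to 99.7% was also in the list of the other genotype at the same time, against 17.1% to 41.8% of the last part. Inside each of the 4 Pol II lists the name reads KO where the sample label reads WT, and WT where it reads KO. Pol II libraries are therefore called here by their label, and their genotypes are uncertain. As the neurons were measured in bulk, a mark in fewer cells and less of it per cell cannot be told apart.

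**Figure D1:**
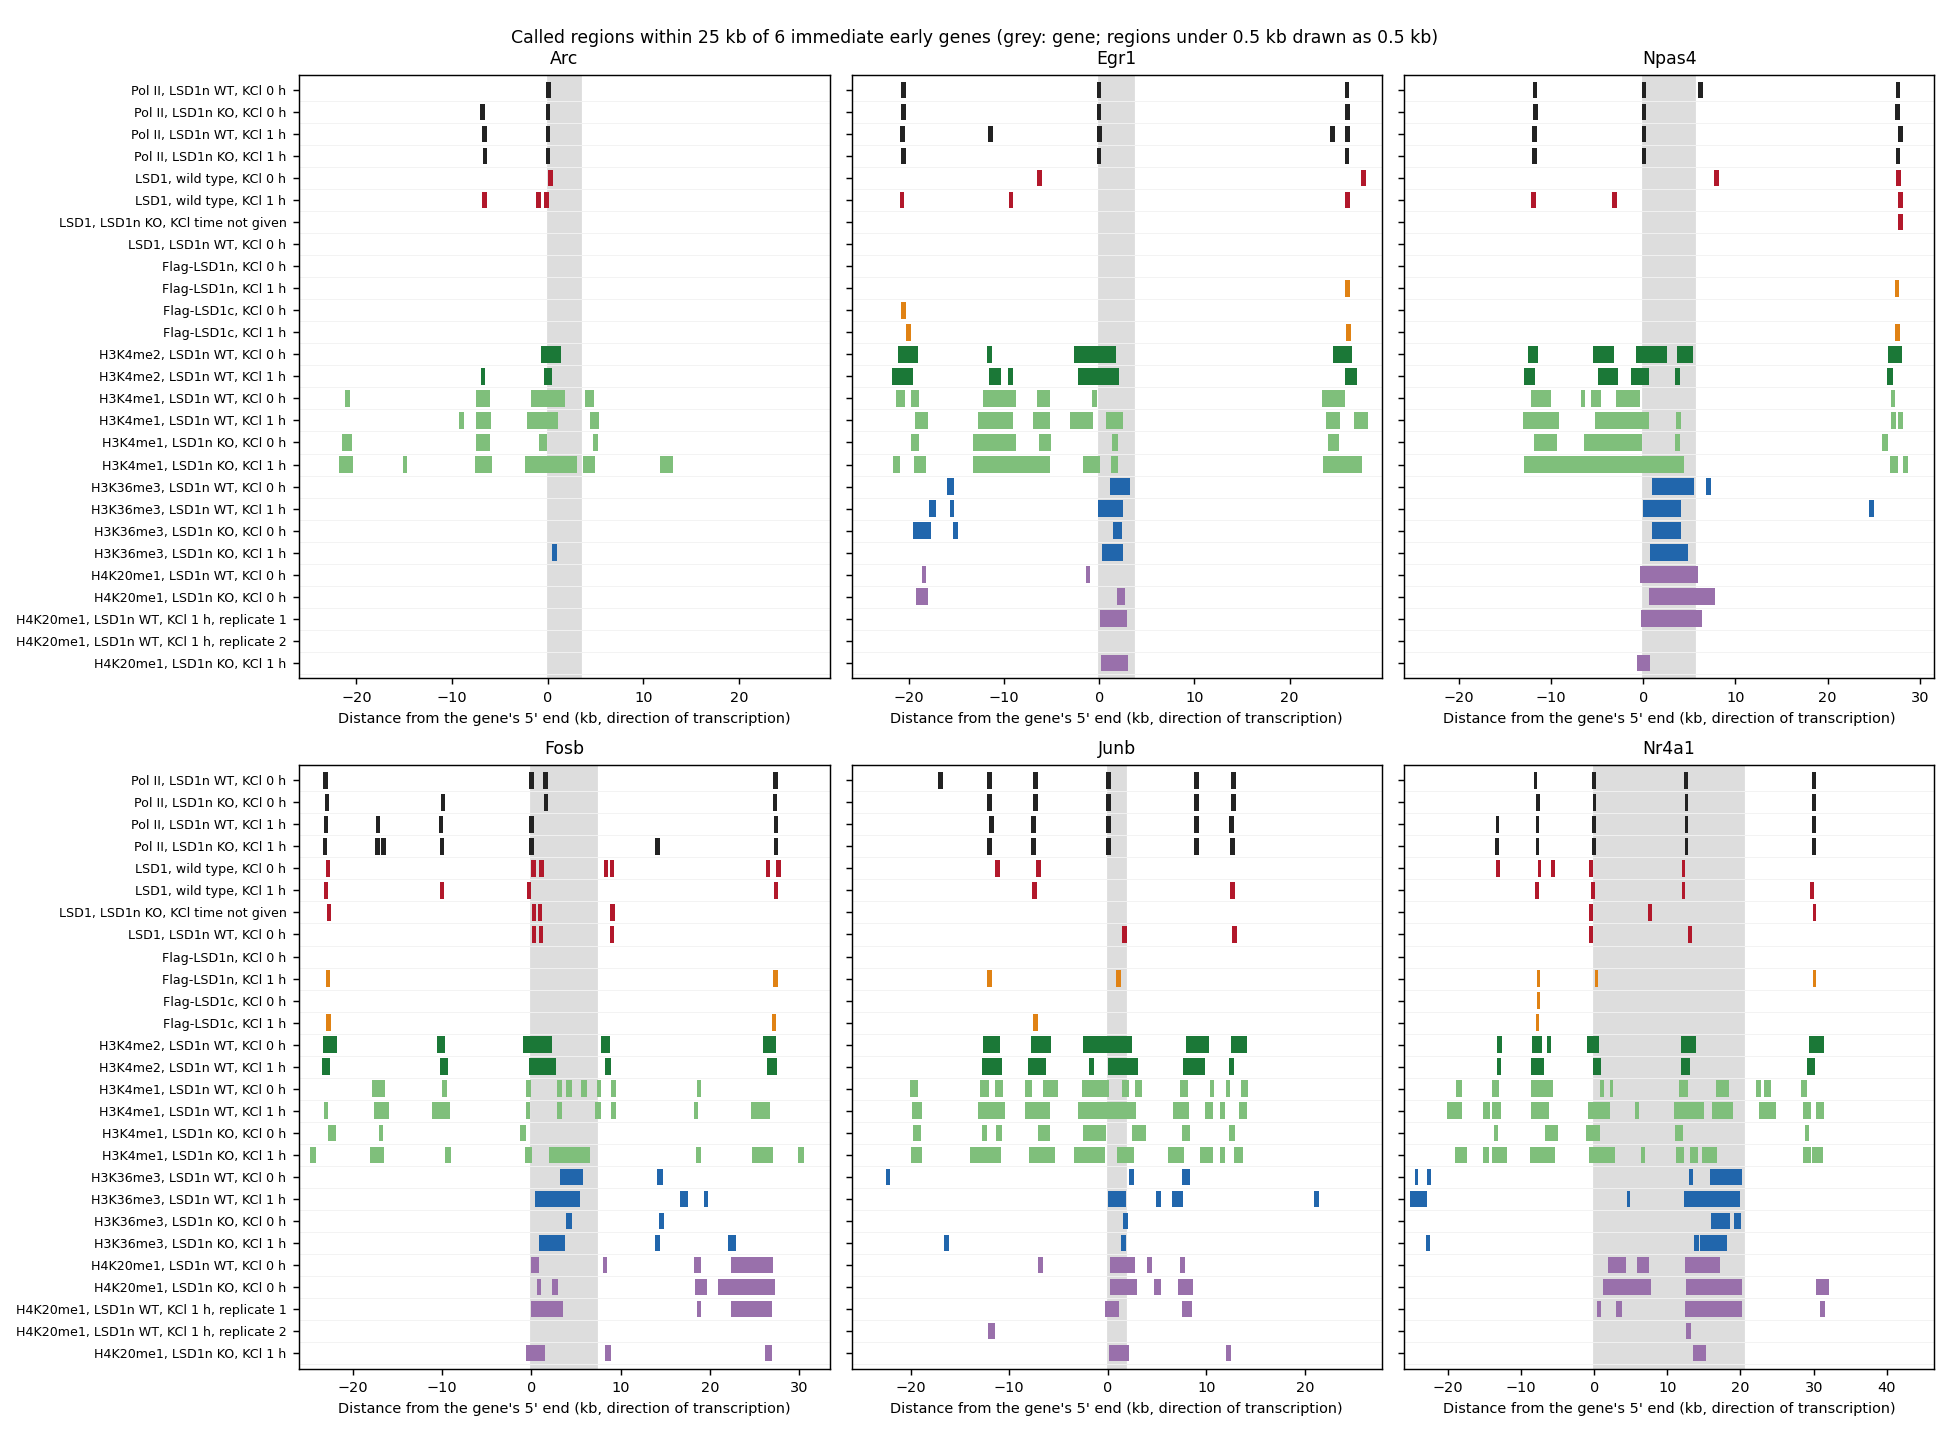
Called regions around the 6 genes, 1 panel a gene and 1 line a list; the x axis is the distance from the 5′ end in kb, and grey marks the gene. Regions under 0.5 kb are drawn as 0.5 kb so that they can be seen. Pol II (black) lay at the 5′ end in all 4 lists for 5 genes and in 3 lists for Fosb, while Arc had no H4K20me1 (purple) and no Flag site (orange) in any list.

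Pol II was called at the 5′ end of Egr1, Npas4, Junb, Nr4a1 and Arc in all 4 lists, before and after KCl. These sites were centred within 0.067 kb of the 5′ ends of the spans. At Fosb the library labelled KO at 0 h had no site there. At Egr1 the site stood at place 66 of 13142 in the library labelled WT at 0 h and 125 of 14284 in that labelled KO. At 1 h it stood at place 5 of 14358 with the label WT and 35 of 16264 with the label KO. Egr1 and Junb thus stood among the first 1% of sites in every list. The Junb site stood at place 44 (label WT) and 109 (label KO) at 0 h, and at place 14 and 47 at 1 h. The Npas4 site stood at place 267 and 188 at 0 h, and at 97 and 99 at 1 h. Arc stood near the start of each list too, at place 189 and 263 at 0 h and 235 and 250 at 1 h. Lists of different length were ordered separately, so these places are set side by side and cannot show whether Pol II changed.

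Fosb had Pol II at 2 positions in its first 2 kb, and which of them was called differed between the times. Both 0 h lists had a site 1.61 to 1.62 kb inside the gene, at place 7211 (label WT) and 8067 (label KO), and neither 1 h list had it. The site at the 5′ end (19895273 to 19895473 with the label WT at 1 h) was at place 7627 with the label WT at 0 h and was not called with the label KO at 0 h. At 1 h it was called with both labels, at place 314 and 3142. The Pol II lists required 4-fold more tags than the surrounding 10 kb, and 38.9% to 59.3% of candidate sites were removed by that requirement. Its part in the Fosb sites was not tested.

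Nr4a1 had 2 Pol II sites on the gene in all 4 lists, one at the 5′ end of its span and one 12.6 kb inside it. The 5′ site stood late in the lists, at place 10548 (label WT) and 9364 (label KO) at 0 h and 4949 and 10293 at 1 h. The inner site (101097195 to 101097395 with the label WT at 0 h) stood earlier in every list, at place 1410 and 2092 at 0 h and at 62 and 625 at 1 h. Its distance from the 5′ end is close to the 12.9 kb that RefSeq gives for the printed promoter with 4 such cores, read in another build.

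**Figure D2:**
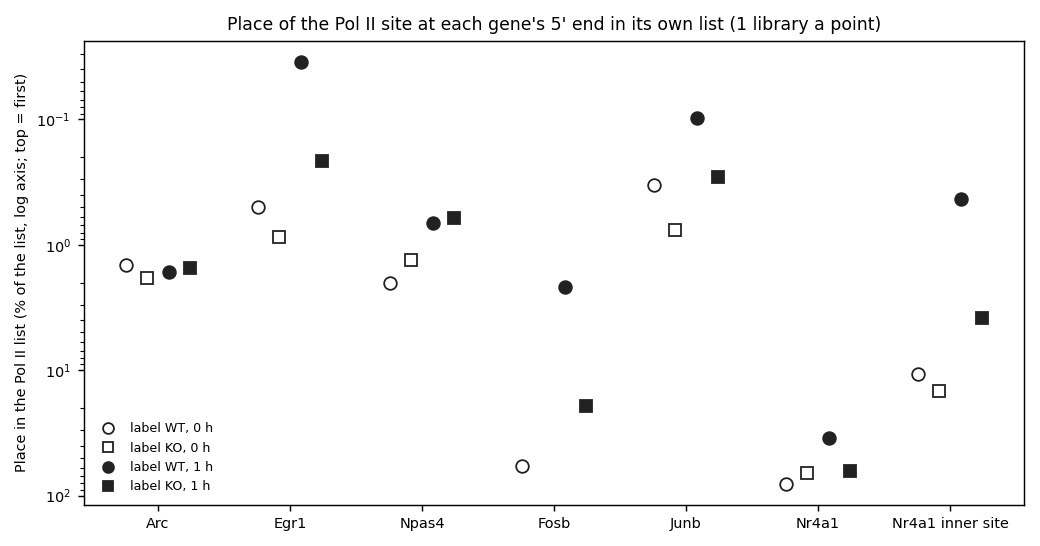
Place of the Pol II site at each gene's 5′ end, and of the inner site of Nr4a1, as a percent of its own list on a log axis with the first place at the top; 1 point is 1 library. Egr1 and Junb sites sit in the first 1% of all 4 lists, and Fosb has no point for the library labelled KO at 0 h.

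Away from the 5′ ends, most Pol II sites near these genes were called at both times. With the label WT, 6 of 25 sites at 1 h had no site within 1 kb at 0 h, while 22.3% of all sites at 1 h had none. They lay 6.64 kb upstream of Arc, 11.4 kb upstream and 24.5 kb downstream of the Egr1 5′ end, 17.2 and 10.1 kb upstream of Fosb, and 13.2 kb upstream of Nr4a1. With the label KO this held for 5 of 25 sites, while 24.8% of all sites did so. Of these, 4 were at Fosb, namely the 5′ end itself, 17.2 and 16.5 kb upstream and 14.1 kb downstream, and 1 lay 13.3 kb upstream of Nr4a1. The sites about 17 kb upstream of Fosb and 13 kb upstream of Nr4a1 were thus called at 1 h and not at 0 h under both labels. In the other direction, 3 of 22 sites at 0 h had none at 1 h with the label WT (14.6% of all sites), and 1 of 21 with the label KO (14.3% of all sites). These were the inner Fosb site under both labels, and with the label WT also sites 6.19 kb downstream of the Npas4 5′ end and 17.0 kb upstream of Junb. With so few sites these shares are no result about the 6 genes.

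Between genotype labels the Pol II sites near the genes differed at few positions. At 0 h, 2 of 21 sites with the label KO had no site with the label WT (20.1% of all sites), at 6.81 kb upstream of Arc and 9.92 kb upstream of Fosb. In turn 3 of 22 with the label WT had none with the label KO (13.3% of all sites), one of them the Fosb 5′ end. At 1 h, 1 of 25 sites with the label KO had none with the label WT (22.3% of all sites), 14.1 kb downstream of the Fosb 5′ end. At that time 2 of 25 with the label WT had none with the label KO (12.6% of all sites), both at Egr1.

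H3K36me3, a mark laid down over transcribed gene bodies by the methylase SETD2 that travels with elongating Pol II, lay on 4 of the genes in all 4 lists: Egr1, Npas4, Fosb and Nr4a1. Junb had it on the gene in 3 lists, and Arc in 1 list (LSD1n KO at 1 h), where a region of 0.501 kb began 0.47 kb inside the gene. In LSD1n WT neurons the share of Egr1 inside H3K36me3 regions was 57.7% at 0 h and 67.3% at 1 h, and in LSD1n KO neurons 27.3% and 58.7%. For Npas4 these shares were 82.1% and 73.4% in WT and 55.0% and 73.8% in KO. The covered share of Npas4 thus was lower at 1 h in WT and higher at 1 h in KO. For Fosb they were 35.0% and 67.6% in WT and 10.4% and 38.5% in KO. For Junb they were 0% and 96.7% in WT and 16.7% and 27.8% in KO. For Nr4a1 they were 23.6% and 40.1% in WT and 17.2% and 20.8% in KO. At 0 h the WT region nearest Junb lay just past the gene, 2.11 to 2.61 kb from the 5′ end. For Egr1, Fosb, Junb and Nr4a1 the covered share was larger in the 1 h list than in the 0 h list in both genotypes. Over the genome size given in the headers, H3K36me3 covered 0.464% at 0 h and 0.763% at 1 h in WT, and 0.135% and 0.112% in KO.

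The 5′ edge of the widest H3K36me3 region on these genes was nearer the gene's start, or past it, in the 1 h lists. In WT the edge at Egr1 lay 1.11 kb inside the gene at 0 h and 0.139 kb upstream of it at 1 h. At Npas4 the edge lay 0.943 kb inside at 0 h and 0.008 kb upstream at 1 h, and at Fosb 3.17 kb and 0.434 kb inside. At Nr4a1 it lay 15.9 kb inside at 0 h and 12.2 kb inside at 1 h, close to the inner Pol II site. Narrower WT regions on Nr4a1 lay nearer its start, centred at 13.2 kb at 0 h and 4.7 kb at 1 h. In KO the edge lay at 1.43 and 0.323 kb for Egr1, 0.962 and 0.703 kb for Npas4, and 3.83 and 0.888 kb for Fosb. It lay at 1.501 and 1.288 kb for Junb, and 16.0 and 14.5 kb for Nr4a1. The 5′ edge was thus further out at 1 h in 4 of 4 genes in WT (median 1.99 kb, range 0.951 to 3.66 kb) and in 5 of 5 in KO (median 1.10 kb, range 0.213 to 2.95 kb). The 3′ edge was further out in 0 of 4 and 2 of 5. Over all H3K36me3 regions shared one to one by both times, 56.3% of edges were further out at 1 h in WT and 47.2% in KO, at either end. The median size of an edge's shift, in either direction, was 0.37 kb over 3750 such regions in WT and 0.344 kb over 532 in KO. The regions compared on the genes were the widest in each list and did not have to overlap one to one. The shifts on the genes and these medians are therefore not like for like. The KO regions at Fosb did not overlap each other, ending at 3.73 kb at 1 h and beginning at 3.83 kb at 0 h. The KO region at Junb was 0.501 kb wide at both times, so both its edges lay 0.213 kb nearer the start at 1 h and it was no wider. These lists were centred by their caller on gaps between nucleosomes, which can move positions, and its part in the shifts was not tested.

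**Figure D3:**
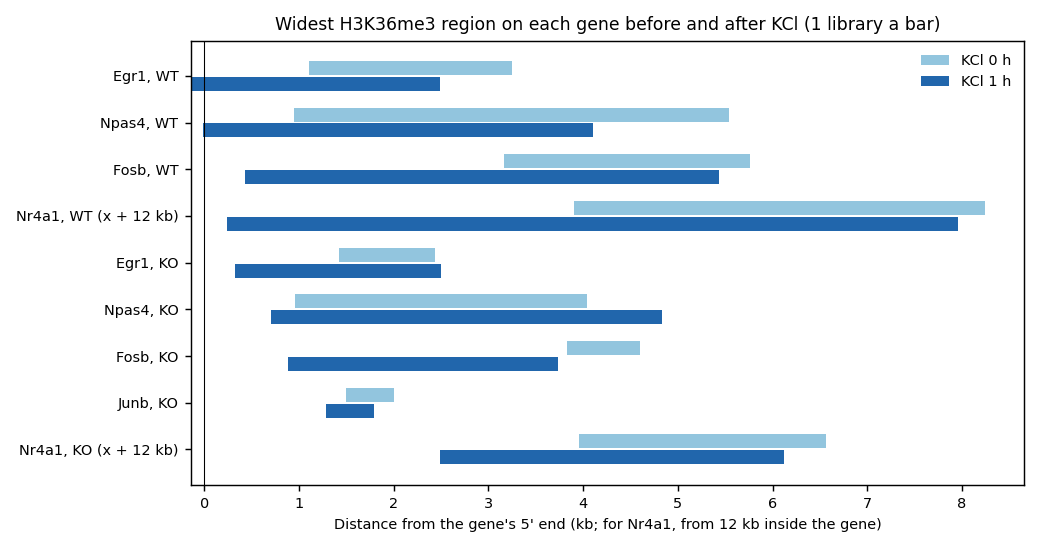
Span of the widest H3K36me3 region on each gene at 0 h (light) and 1 h (dark), 1 library a bar; the x axis is the distance from the 5′ end in kb, counted for Nr4a1 from 12 kb inside the gene. The left edge is further left at 1 h in all 9 pairs, and Junb in WT and Arc have no pair.

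Between genotypes, the H3K36me3 regions on the bodies of these genes were for the most part called in both. Near the genes, 7 of 13 WT regions at 0 h overlapped no KO region, while 88.0% of all WT regions did so. At 1 h this held for 9 of 15, against 91.9% of all WT regions. The WT regions on the bodies of Egr1, Npas4, Fosb and Nr4a1 overlapped a KO region at both times, except for a piece of 0.501 kb at 13.2 kb in Nr4a1 at 0 h and another at 4.69 kb at 1 h. By width, the widest on-gene KO region of Npas4 ranked 43 of 3685 at 0 h and 15 of 3166 at 1 h, that of Nr4a1 56 and 17, that of Egr1 374 and 63, and that of Fosb 596 and 35. Junb, at 1203 and 997, and Arc, at 997 at 1 h, had regions of 0.501 kb, which is among the narrowest widths called. Wide regions meet an overlap of 1 bp more easily, and regions were not matched by width. In all, the 6 windows held 13 WT and 9 KO regions at 0 h, and 15 and 11 at 1 h. The KO share of the regions of both lists was 42.3% (95% exact interval 23.4 to 63.1, counting error only) at 1 h, against 15.4% over all regions. At 0 h it was 40.9% (20.7 to 63.7), against 24.2% over all regions. When only as many of the widest WT regions were kept as the KO list holds, KO regions made up 61.1% at 1 h (11 against 7, interval 35.8 to 82.7) and 56.3% at 0 h (9 against 7). The share over all regions is then 50% by construction, and the interval at 1 h holds it. The KO libraries had 12572399 and 13147855 tags and the WT libraries 16785574 and 19055899, and the part of depth in these shares was not tested.

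H4K20me1, the mark that LSD1n is reported to remove, was called on at least a part of Npas4, Junb, Fosb and Nr4a1 at rest in both genotypes. It was not called within 25 kb of Arc in any of 5 lists. At 0 h, 1 region of 6.26 kb covered 100% of Npas4 in WT, and 1 of 7.18 kb covered 88.5% of it in KO. At 1 h the covered share of Npas4 was 100% in WT replicate 1, 0% in WT replicate 2 and 13.3% in KO. For Junb the shares were 90.3% in WT and 90.6% in KO at 0 h, then 64.6% and 0% in the WT replicates and 94.2% in KO at 1 h. For Nr4a1 they were 42.8% in WT and 69.2% in KO at 0 h, then 44.1% and 3.31% in the WT replicates and 8.73% in KO at 1 h. For Fosb they were 11.3% in WT and 15.7% in KO at 0 h, then 48.4% and 0% in the WT replicates and 20.8% in KO at 1 h. Egr1 had 0% of its length covered at 0 h in WT, and 21.8% in KO. At 1 h its share was 76.6% in WT replicate 1, 0% in replicate 2, and 75.8% in KO. Egr1 thus was covered more at 1 h than at 0 h in KO and in 1 of the 2 WT libraries, with the regions beginning 0.072 and 0.24 kb inside the gene. The WT replicates at 1 h had 11 and 2 regions in the 6 windows. Their lists held 28453 and 2844 regions, with 10.2% and 0.881% of tags in regions, so no direction with KCl or genotype could be drawn. Replicate 1 has a title prefix of its own, and replicate 2 shares one with the KO library at 1 h. Within that shared prefix the windows held 2 WT and 8 KO regions. KO thus made up 80% there, against 76.0% over all regions of these 2 lists. At 0 h, 4 of 13 KO regions near the genes overlapped no WT region, while 63.5% of all KO regions did so. They were the Egr1 region, a piece at 2.68 kb in Fosb, and regions 5.02 kb downstream of the Junb and 31.2 kb downstream of the Nr4a1 5′ end. As for H3K36me3, wide regions overlap more easily, and regions were not matched by width.

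H3K4me1, a mark of enhancers and of the flanks of active promoters, was called in every window in all 4 lists. In WT it covered 15.1% of the 342.5 kb of the 6 windows at 0 h and 22.9% at 1 h, and in KO 11.3% and 27.7%. Over the genome size given in the headers these shares were 1.84% and 2.50% in WT and 1.59% and 3.89% in KO. The number of regions near the genes was 46 and 45 in WT and 29 and 43 in KO, so the larger covered length in WT at 1 h came with no more regions. In WT 11 of 45 regions at 1 h overlapped no region at 0 h, while 49.4% of all regions did so. In KO 20 of 43 did so, while 61.5% of all regions did. Regions were not matched by width here either. On the genes themselves the covered share in KO was lower at 0 h than at 1 h for each of the 6. It was 0% and 88.9% for Arc, 18.8% and 23.4% for Egr1, 8.95% and 79.2% for Npas4, 0% and 63.8% for Fosb, 0% and 51.3% for Junb, and 9.37% and 37.0% for Nr4a1. In WT it was 52.9% and 32.5% for Arc, 0% and 47.0% for Egr1, 0% and 19.6% for Npas4, 25.9% and 10.8% for Fosb, 25.6% and 100% for Junb, and 19.9% and 46.4% for Nr4a1. Arc and Fosb thus had a smaller covered share at 1 h than at 0 h in WT and a larger one in KO. At Arc the WT region crossed the 5′ end at both times, from 1.765 kb upstream to 1.851 kb inside at 0 h and from 2.145 to 1.135 kb at 1 h. In KO at 0 h a region ended 0.107 kb upstream of Arc. The WT regions on Fosb at 0 h were only 0.501 to 0.693 kb wide. The shares at Arc and Fosb thus depend on where edges and narrow regions were called. The KO library at 1 h had 34859557 tags and the other 3 had 22970480 to 23973912, and the part of depth was not tested.

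The widest H3K4me1 region near these genes ran from 12.97 kb upstream to 4.44 kb inside the mm9 span of Npas4 in KO at 1 h. It was 17.4 kb wide and ranked 11 by width among 62945 regions. In WT at 1 h the same stretch was called as separate regions, from 13.02 to 9.17 kb upstream, 5.29 to 1.66 kb upstream, and others nearer the gene. In KO at 0 h a region of 6.28 kb, rank 77, ended 0.199 kb upstream of the gene. Upstream of Egr1, a region between 13.2 and 8.72 kb was called in KO at 0 h (4.52 kb wide), and in KO at 1 h it reached 5.20 kb upstream and was 8.10 kb wide. In WT the region there was 3.51 kb wide at 0 h and 3.67 kb at 1 h. At 0 h, 21 of 46 WT regions overlapped no KO region (52.9% of all WT regions), 8 of them at Fosb. At 1 h this held for 6 of 45 (28.1% of all WT regions), again with no matching by width.

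H3K4me2, a substrate of LSD1 that marks promoters and enhancers, lay across the 5′ end of each of the 6 genes at both times, in LSD1n WT neurons, where alone it was measured. At Egr1 the region ran from 2.67 kb upstream to 1.78 kb inside at 0 h (4.45 kb wide) and from 2.24 kb upstream to 2.08 kb inside at 1 h (4.33 kb wide). At Junb it ran from 2.54 kb upstream to 2.44 kb downstream of the 5′ end at 0 h, and from 0.024 kb upstream to 3.07 kb at 1 h. At Npas4 the width was 3.39 kb at 0 h and 1.99 kb at 1 h, and at Fosb 3.30 and 2.97 kb. At Arc it was 2.10 and 0.891 kb, and at Nr4a1 1.71 and 1.08 kb. All 6 regions were narrower in the 1 h list, as were 62.8% of the 10387 H3K4me2 regions shared one to one by both times. Over the whole list H3K4me2 covered 23.9 Mb at 0 h and 18.04 Mb at 1 h. Only 1 of 26 regions near the genes at 0 h overlapped none at 1 h, 6.17 kb upstream of Nr4a1, while 30.7% of all regions did so. Wide regions overlap more easily, and these were not matched by width, so the 2 shares are not like for like. The 1 h library had 6990017 tags and the 0 h library 9418008, and the part of depth in the widths was not tested.

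**Figure D4:**
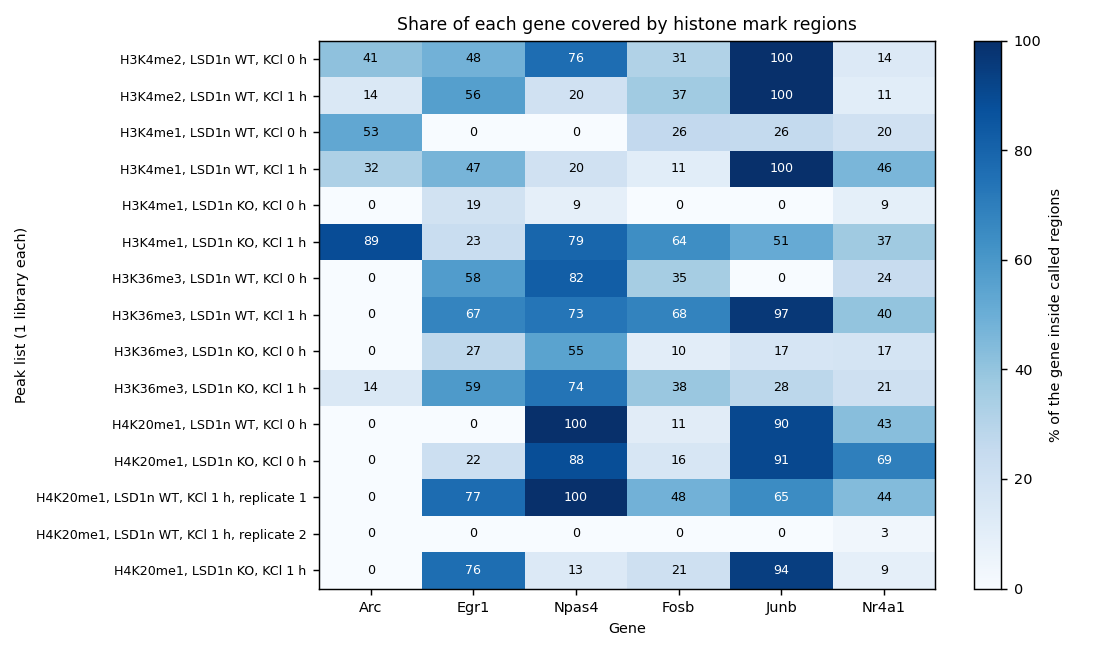
Percent of each gene inside called regions of each histone mark, with 1 line a list and 1 column a gene; darker blue is more of the gene. H3K4me1 in LSD1n KO goes from at most 18.8% at 0 h to 23.4% or more at 1 h over the 6 genes, and the second WT H4K20me1 library at 1 h is near 0 throughout.

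Sites of the LSD1 antibody lay near all 6 genes in wild type neurons, 19 at each time. At 1 h, 10 of 19 had no site within 1 kb at 0 h, while 47.0% of all sites had none, and 9 of 19 at 0 h had none at 1 h (52.0% of all sites), so the members were near all sites. At the genes' starts, Fosb had sites 0.255 and 1.12 kb inside at 0 h and 0.281 kb upstream at 1 h. Nr4a1 had a site 0.458 kb upstream at 0 h and 0.177 kb upstream at 1 h, and sites near the inner Pol II site, at 12.2 kb, at both times. Arc had one 0.267 kb inside at 0 h, and at 1 h sites 0.142, 0.972 and 6.62 kb upstream. No LSD1 site lay within 1 kb of the start of Egr1, Npas4 or Junb in either wild type list. For Egr1 the 0 h sites lay 6.28 kb upstream and 27.7 kb downstream, and the 1 h sites 20.7 and 9.27 kb upstream and 26.1 kb downstream. For Npas4 they lay 7.95 and 27.7 kb downstream at 0 h, and 11.9 and 3.15 kb upstream and 27.9 kb downstream at 1 h. The Npas4 site at 3.15 kb stood at 1.26% of the 1 h list, and H3K4me1 overlapped it in 3 of 4 lists and H3K4me2 in both. Junb had sites 11.2 and 6.99 kb upstream at 0 h and 7.40 kb upstream and 12.6 kb downstream at 1 h. Fosb further had 0 h sites 22.8 kb upstream and 8.38, 9.03, 26.5 and 27.7 kb downstream, and 1 h sites 22.98 and 10.01 kb upstream and 27.4 kb downstream. Nr4a1 further had 0 h sites 13.1, 7.45 and 5.62 kb upstream, and 1 h sites 7.82 kb upstream and 29.7 kb downstream.

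With and without LSD1n the LSD1 antibody gave 7 sites (LSD1n WT at 0 h) and 8 sites (LSD1n KO) near the genes, at Fosb, Nr4a1 and, in 1 list each, Npas4 or Junb. In both lists Fosb had 3 sites at like positions. They lay 0.279, 1.11 and 9.03 kb inside or past the gene in WT and 0.32, 0.97 and 9.08 kb in KO. Nr4a1 likewise had a site 0.42 kb upstream in WT and 0.393 kb upstream in KO. In KO 4 of 8 sites had no WT site within 1 kb (40.6% of all KO sites), namely Npas4 at 27.9 kb, Fosb 22.7 kb upstream, and Nr4a1 at 7.63 and 30.1 kb. In WT 3 of 7 had no KO site (37.4% of all WT sites), namely Junb at 1.65 and 12.8 kb and Nr4a1 at 13.1 kb. These shares were near those of all sites. The KO library had another title prefix and 31532169 tags against 17993780, so genotype, KCl time and prefix cannot be told apart.

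Flag-LSD1n had no site near any of the 6 genes at 0 h and 9 at 1 h, near 5 of them. The 1 h sites lay at Junb, 12.03 kb upstream and 1.05 kb inside, and at Nr4a1, 7.60 kb upstream, 0.303 kb inside and 30.1 kb downstream. At Fosb they lay 22.8 kb upstream and 27.3 kb downstream, at Egr1 26.04 kb downstream and at Npas4 27.5 kb downstream. The Junb site inside the gene stood at 3.27% of its list. With 9 sites against 0, the 1 h share was 100% (66.4 to 100), an interval that holds the 82.5% over all sites. The 0 h list had 940 sites and the 1 h list 4438, so the share at the genes did not stand apart from that of the lists as a whole. With equal list lengths it was 3 sites against 0 (29.2 to 100). Flag-LSD1c had 2 sites at 0 h, 20.5 kb upstream of Egr1 and 7.60 kb upstream of Nr4a1, and 7 at 1 h. The 7 lay 19.99 kb upstream and 26.2 kb downstream at Egr1, 27.6 kb downstream at Npas4, 22.7 kb upstream and 27.2 kb downstream at Fosb, 7.30 kb upstream of Junb and 7.72 kb upstream of Nr4a1. None of the 9 Flag-LSD1c sites was on a gene or within 1 kb of one. At 1 h, 4 of 9 Flag-LSD1n sites had no Flag-LSD1c site within 1 kb (39.7% of all), the 2 at Junb and those at 0.303 and 30.1 kb at Nr4a1. In turn 2 of 7 Flag-LSD1c sites had no Flag-LSD1n site (50.4% of all), at Egr1 and Junb. Title prefix differs between the Flag-LSD1n and Flag-LSD1c libraries, and its part cannot be told apart from that of the isoform.

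Fixed-size sites of all 12 lists within 1 kb of each other merged into 36 sites, 10 on a gene or within 1 kb of it and 26 away from it. Of the 36 sites, 28 held Pol II, 19 of them in all 4 lists, 27 held LSD1, 11 held Flag, 19 held Pol II and LSD1, and 31 overlapped H3K4me1 or H3K4me2. Merging ran in chains, so a merged site can join distinct positions. Both Pol II positions at the start of Fosb fell in the same site, counted as Pol II in all 4 lists, though neither position was called in all 4. Over all 40580 sites merged in the same way, 48.6% held Pol II, 24.5% held it in all 4 lists, 81.4% held LSD1, 19.8% held Flag, 30.6% held Pol II and LSD1, and 60.7% overlapped H3K4me1 or H3K4me2. These shares were not tested against each other, and nothing particular to the 6 genes is read from them. Of the 26 sites away from the 6 genes, 20 held Pol II, 12 of them in all 4 lists, 20 held LSD1 and 9 held Flag. Promoters of neighbouring genes were not taken out of these 26 sites, as no mm9 annotation was used. Places upstream of Npas4 that may lie in RefSeq's longer span of it were not taken out either. Both Pol II and LSD1 were called at 14 of them. H3K4me1 or H3K4me2 overlapped 23 of the 26, while 10 were called in 1 of the 12 lists only. The shares over all 40580 sites above were not split by distance from a gene. These counts thus have no like background and are description only. Of all 36 sites 12 were called in 1 list only, against 48.8% of the 40580. The site 7.73 kb upstream of Nr4a1 (chromosome 15, 101076592 to 101077351) was called in 9 of 12 lists, with Pol II in all 4, wild type LSD1 at both times, Flag-LSD1c at both times and Flag-LSD1n at 1 h. The site 22.9 kb upstream of Fosb (chromosome 7, 19917960 to 19918583) and the site 27.7 kb downstream of the Npas4 5′ end (chromosome 19, 4961955 to 4962560) were called in 9 lists each. Both of these lie towards a neighbouring gene, Ercc1 and Mrpl11. The site 6.69 kb upstream of Arc (chromosome 15, 74509463 to 74509910) held Pol II in 3 lists, all but the label WT at 0 h, LSD1 in wild type neurons at 1 h, and H3K4me1 in 4 of 4 lists. The site 11.8 kb upstream of the mm9 span of Npas4 (chromosome 19, 5001626 to 5002007) held Pol II in all 4 lists, LSD1 at 1 h, and H3K4me1 in all 4. It may lie inside RefSeq's longer span of this gene. The site 16.9 kb upstream of Fosb (chromosome 7, 19911833 to 19912700) held Pol II at 1 h alone under both labels, and H3K4me1 in all 4 lists. Upstream of Junb, sites at 11.6 kb (chromosome 8, 87513652 to 87514725) and 7.28 kb (87509494 to 87510265) held Pol II in all 4 lists.

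In most of the 23 comparisons of peak numbers within 25 kb, the intervals did not set the 6 genes apart from the lists as a whole. Many of these intervals are wide, so they do not show that the genes followed the lists. For Pol II, 1 h made up 53.2% (38.1 to 67.9) of the sites of both times with the label WT and 54.3% (39.01 to 69.1) with the label KO, against 52.2% and 53.2% over all sites. For H3K4me1, 1 h made up 49.5% (38.8 to 60.1) in WT and 59.7% (47.5 to 71.1) in KO, against 54.6% and 65.4% over all regions. KO neurons gave 38.7% (27.6 to 50.6) of the H3K4me1 regions of both genotypes at 0 h, where 47.2% of all regions came from KO. At 1 h they gave 48.9% (38.05 to 59.8), where 58.4% of all regions did. The interval held the share over all peaks in 22 of 23 comparisons, the exception being H3K36me3 in KO and WT at 1 h, which was lost with equal list lengths. Peaks near 1 gene are not independent, so these intervals are narrower than they should be.

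**Figure D5:**
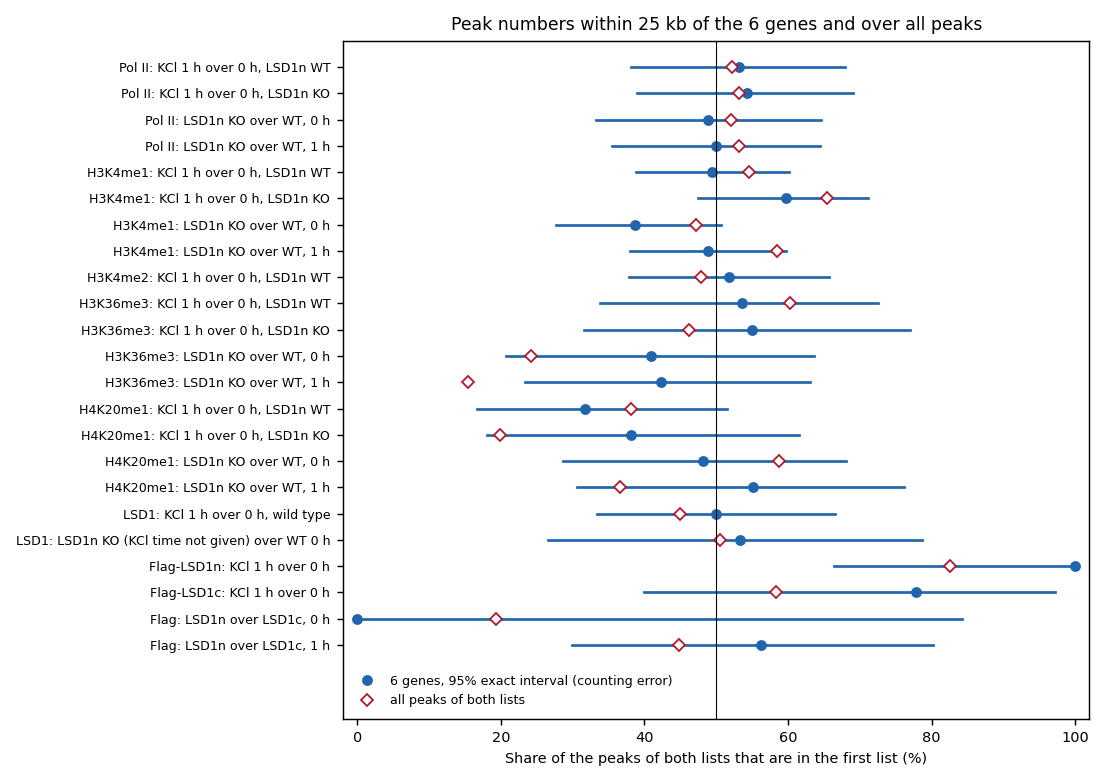
Share of the first list among the peaks of both lists within 25 kb of the 6 genes (blue, with 95% exact intervals of counting error) and over all peaks (red), for each of 23 comparisons; the black line marks an equal share of 50%. The interval leaves out 50% for Flag-LSD1n at 1 h over 0 h alone, where the share over all sites is 82.5%.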

How the data were processed

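The authors deposited, for each of 27 libraries, a list of called regions: genomic positions in bp of mm9 and a score, which is 1 in every deposited entry. Bowtie, HOMER (no version given for either) and build mm9 come from the submitters' processing notes. Per the file headers, HOMER built histone regions from 500 bp peaks at least 1250 bp apart. For Pol II, LSD1 and Flag it called sites 200 bp wide, at least 500 bp apart, with 4 times the tags of their 10 kb of surroundings. The false discovery rate was 0.001 throughout, with 150 bp as fragment length and at most 1 tag a position. A control library is not named there. No per-sample value other than these was used.

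Regions that overlap the 25 kb on either side of a gene were taken in Python 3.11.15 (arrays in numpy 2.4.6, intervals from scipy 1.17.1, plots from matplotlib 3.10.9). A fixed-size site counted as shared when the other list had a site within 1 kb (chosen after the data were seen), a histone region at an overlap of 1 bp. Shares have exact Clopper-Pearson intervals at 95%. The search was tested on simulated lists. For H4K20me1 in WT at 1 h the mean of 2 lists was used. The members and lists were chosen with earlier results of these data known. By rule, all 6 genes were described in each list, naming the peak nearest the 5′ end, the first-listed or widest one, and each LSD1 or Flag peak; other peaks were named after their values were seen. No mm9 annotation was used, so the planned activity gene and marker lists were not run and the labelled cell type was not checked against its markers. Title prefixes were taken as possible batches: H3K36me3, H3K4me1, H3K4me2 and Pol II each have 1 prefix, and the H4K20me1 lists have 1 prefix at 0 h, another for WT replicate 1 at 1 h and another for WT replicate 2 and KO at 1 h.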

Additional observations from a re-analysis of the deposited data

Results flagged for a closer look

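In 3 pairs of comparisons the shares at the 6 genes fell on either side of 50%, and the difference was not tested in any of them. Each rests on few regions of 1 library a group (2 for H4K20me1 in WT at 1 h), and the values near 50% show no direction of their own. H3K4me1 regions at 1 h made up 49.5% of those of both times in WT (45 against 46) and 59.7% in KO (43 against 29), where the shares over all regions were 54.6% and 65.4%. The KO share of H4K20me1 regions was 48.1% at 0 h (13 against 14) and 55.2% at 1 h, where the shares over all regions were 58.8% and 36.6%. The WT value at 1 h is the mean of 2 libraries with 11 and 2 regions, and without replicate 2 the KO share at 1 h was 42.1%, on the same side as at 0 h. The KO share over all regions was then 24.1%. Flag-LSD1n made up 0% of the Flag sites of both isoforms at 0 h (0 against 2) and 56.3% at 1 h (9 against 7), where the shares over all sites were 19.3% and 44.8%.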

How the results depend on the processing

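Of 145 values under the first set of alternatives (wider and narrower windows, merged peaks, peaks of all 8 targets left out, equal list lengths, peak centres, the other Pol II genotype, replicates left out) 142 lay within the interval of the value reported, and of 159 under alternatives chosen after seeing the data 158 did. These intervals are wide, so this is a loose limit and no sign of stability. H3K36me3 KO over WT at 1 h, 42.3% as reported and 61.1% with equal list lengths, counted as within. Most intervals held 50%, and in 12 of 23 comparisons at least 1 alternative put the share on the other side of 50% (21 of 304 values). With equal list lengths these were H3K36me3 KO over WT, 61.1% at 1 h and 56.3% at 0 h, H3K36me3 at 1 h over 0 h in WT, 45.8%, and H4K20me1 at 1 h over 0 h in KO, 61.5%. The one share whose interval left out 50%, Flag-LSD1n at 1 h over 0 h, stayed at 100% with equal list lengths, where its interval (29.2 to 100) held 50%. With regions within 5 kb merged, the KO share of H3K4me1 at 0 h was 51.5% (17 against 16 regions). Leaving out either WT library of H4K20me1 at 1 h gave a 1 h share in WT of 12.5% to 44%, and a KO share at 1 h of 42.1% to 80%. The low 1 h share and the high KO share came without replicate 1. Over all regions the 1 h shares were then 10.1% and 52.8%, and the KO shares 24.1% and 76.0%, in the same order. On the gene or within 1 kb alone, Flag-LSD1n made up 100% of Flag sites at 1 h (2 against 0). With an overlap of 1 bp in place of 1 kb, 17 of 19 wild type LSD1 sites were in 1 list alone at each time (74.3% of all sites at 1 h and 79.05% at 0 h). Pol II sites in 1 list alone were then 8 (label WT) and 7 (label KO) at 1 h and 5 and 3 at 0 h. By genotype they were 4 (label KO) and 5 (label WT) at 0 h and 3 and 3 at 1 h. With 0 h of one genotype set against 1 h of the other, the 5′ edge of H3K36me3 was further out at 1 h in 9 of 9 pairs. These pairs reuse the regions already compared, with only Junb in WT at 1 h added, so they are no separate check. With the region nearest the 5′ end in place of the widest, the WT range was 0.951 to 8.54 kb. No paired analysis was possible because the groups hold 1 library each and the labels give them no shared replicate numbers. No region's height was deposited, so depth limits which weak regions were called and cannot be removed here.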
